A study of Mus musculus with 2 samples.

Results

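The genes described here encode the machinery of oxidative phosphorylation in mouse liver. They were found by symbol, as the rows whose names begin with *Nduf*, *Uqcr*, *Cox4* to *Cox8* or *Atp5*, the 4 genes *Sdha* to *Sdhd*, and the protein-coding genes of mitochondrial DNA, which carry the prefix mt-. Symbols marked -ps, for pseudogene, were left out. The rule found 92 of 53342 rows, all of them nuclear genes. It found 0 mt- rows, so the mitochondrial genes themselves were not analysed here. Of the 92 genes, 74 encode subunits that most tissues use, 8 encode isoforms typical of other tissues, and 10 are named like subunits but encode assembly factors or related proteins. Measured expression played no part in the rule.

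Stranded mRNA libraries from liver were sequenced for 1 control sample and 1 iFIRKO sample, both from male mice. iFIRKO mice (Adipoq-CreERT2; Insr flox/flox) carry a Cre recombinase that tamoxifen switches on and that the adiponectin promoter restricts to adipocytes, where it deletes the insulin receptor gene. Hepatocytes are not a target of this Cre, so the liver keeps its own receptor gene. The labels give the control genotype as WT, whereas the study describes IR flox/flox controls. Both genotypes received tamoxifen (100 mg/kg, 5 days) at 7 weeks of age, and liver was collected 3 days after the last dose. Whether a library holds 1 mouse or a pool is not stated. With 1 library per genotype, no difference below has a replicate check and no p-value was computed.

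Oxidative phosphorylation is the final stage of fuel oxidation in mitochondria. Complexes I and II take electrons from NADH and succinate, complex III passes them to cytochrome c, and complex IV delivers them to oxygen, while complex V (ATP synthase) uses the resulting proton gradient to make ATP. Most subunits are encoded in the nucleus and imported, a few hydrophobic ones are encoded in mitochondrial DNA, and complex II is entirely nuclear. Liver depends on this system to power glucose synthesis, urea synthesis and the oxidation of fatty acids.

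The deposited values are normalized read counts, given here on the linear scale. The libraries held an estimated 42276968 reads (control) and 41305480 reads (iFIRKO) on genes. A gene was tested when it reached 41.8 normalized reads, equal to a library-scaled count (CPM) of 1, in either or both libraries, which 13400 genes did. The log2 fold change is iFIRKO over control, each with 4.18 normalized reads added. Each interval is an exact (Clopper-Pearson) 95% interval on estimated read pairs, which covers counting error only and compares these libraries, not the genotypes. Hepatocyte markers were abundant in both libraries, with *Alb* at 4167150 and 3944160 normalized reads. Their levels were not all steady. Of the 5 listed, 4 were below 0 on the log2 scale, among them *Cps1* (-0.38), and *Ttr* was above (0.29). *Apoa1* passed 1.5-fold downwards, with 168382 and 87600 (-0.94). Every one of 6 erythroid markers passed 1.5-fold upwards in iFIRKO liver (summed level 13455 and 27006), and all 6 tested leukocyte markers, of 7 listed, passed it downwards (summed level 15990 and 9966). Over all tested genes 4.46% passed 1.5-fold upwards and 7.28% downwards. The part of these marker shifts in the results below was not tested. In bulk tissue, fewer cells of a type and less RNA per cell cannot be told apart.

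The subunit genes were among the more abundant mRNAs of the liver. Their median level was 4346 normalized reads against 637 for all tested genes, and their median transcript was short, at 760.5 nucleotides against 2700. Per kilobase of transcript the median was 4986 normalized reads for the subunits and 230.2 for all tested genes. The 74 genes were spread over 18 chromosomes.

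Levels per kilobase differed between complexes. Averaged over both libraries, the median subunit of complex I had 3042 normalized reads per kilobase, complex II 6054, complex III 7237, complex V 7351 and complex IV 9767. Single subunits within a complex ranged far more widely than that. Complex I spanned 868 to 7150 normalized reads per kilobase and complex V 4703 to 23923, so the ranges of these complexes overlapped. The highest of all was *Atp5b*, the catalytic β subunit of ATP synthase, with 23537 (control) and 24309 (iFIRKO) normalized reads per kilobase. Paired values below are given in that order. It was followed by *Uqcrq*, a small subunit of complex III, with 17602 and 19349, and by *Atp5a1*, the α subunit that alternates with β in the catalytic head, with 15727 and 17277.

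**Figure D1:**
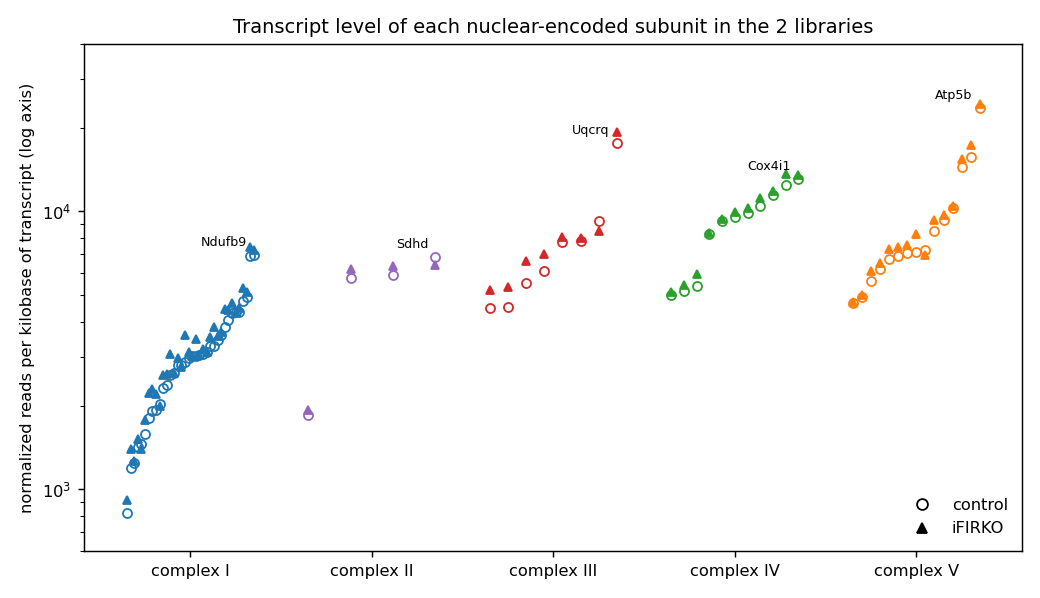
Level of each of the 74 nuclear-encoded subunits in normalized reads per kilobase of transcript (log axis), ordered by the control value within each complex; circles are the control library and triangles the iFIRKO library, and the highest gene of each complex is named. The values of the 2 libraries lie close together for every gene, while levels within complex I run from 868 to 7150 on average.

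Between the libraries the subunit mRNAs differed little, and most of them in one direction. None of the 74 subunits was more than 1.5-fold higher or lower, where 11.7% of all tested genes passed that fold. Because low genes vary more by counting alone, a closer background was taken, with a floor on level but no match to the subunits' levels. It holds the 4770 tested genes at least as abundant as the lowest subunit. Of these, 4.86% passed 1.5-fold, 2.24% upwards and 2.62% downwards. The values of 66 subunits lay above 0 on the log2 scale and those of 8 below 0. Among all tested genes 51.3% lay above 0, and among the 4770 genes at or above the floor 55.7% did. The median log2 fold change of the subunits was 0.09 (interquartile range 0.03 to 0.14). It was 0.0075 for all tested genes and 0.024 for the genes at or above the floor. Summed over the 74 genes, 409107 normalized reads in control liver stood against 437546 in iFIRKO liver, a log2 ratio of 0.10.

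Most of these differences were near the limit of what the depth can resolve. The median half-width of a subunit's counting interval was 0.087 on the log2 scale, from 0.026 for the deepest gene to 0.17 for the shallowest. The interval lay wholly above 0 for 34 of the 74 subunits, against 31.8% of the 4770 genes at or above the floor. The interval lay wholly below 0 for 2 subunits, *Sdhd* and *Uqcrh*, where the share among those genes was 26.2%. Whether an interval clears 0 depends on depth, and those genes were not matched to the subunits on level. For the remaining 38 subunits no difference was detectable at this depth. The fold change showed little relation to level (Spearman rho 0.07) or transcript length (rho 0.20) across the 74 genes, which share the same libraries and are not independent.

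**Figure D2:**
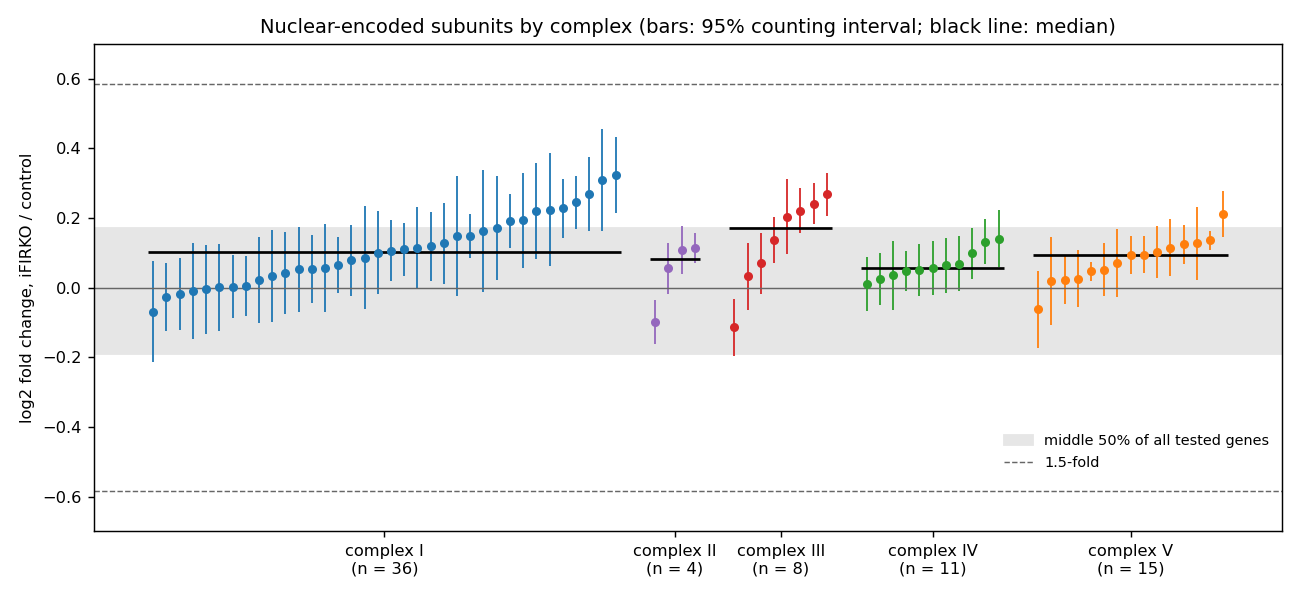
Log2 fold change (iFIRKO over control) of each subunit, sorted within its complex; bars are 95% counting intervals, black lines the median of each complex, the grey band the interquartile range of all tested genes and dashed lines 1.5-fold. All 74 points lie between -0.11 and 0.32, inside the dashed lines, and 66 of them are above 0.

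Complex I, the NADH dehydrogenase, is the largest of the 5 complexes. Of its 36 nuclear subunits 31 were above 0, with a median log2 fold change of 0.10. Intervals lay wholly above 0 for 15 of them, against 31.8% of the genes at or above the floor. The 7 core subunits, which bind NADH, flavin and the iron-sulfur clusters, had a median of 0.11, and the 29 accessory subunits, which surround and stabilize the core, a median of 0.10. Core and accessory subunits thus had medians close to each other.

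Among the core subunits, *Ndufs1*, which holds several iron-sulfur clusters, had 4992 and 5705 normalized reads (log2 fold change 0.19, interval 0.11 to 0.27). *Ndufv1*, which binds NADH and the flavin, had 5436 and 5866 (0.11, interval 0.03 to 0.19). *Ndufv2*, its partner in the NADH-oxidizing tip, was the only core subunit besides *Ndufs7* below 0, with 3435 and 3372 (-0.03, interval -0.12 to 0.07). Subunits that sit side by side in the enzyme thus did not share a single value, although the interval of *Ndufv2* reached into that of *Ndufv1*.

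The widest differences in complex I were those of accessory subunits. *Ndufa8* (chromosome 2 of GRCm38, 36036326 to 36049406, minus strand) had 2462 and 3080 normalized reads, 25.1% more in iFIRKO liver (log2 fold change 0.32, interval 0.21 to 0.43). It was the highest fold of all 74 subunits. *Ndufb3*, part of the membrane arm, followed with 1371 and 1699 (0.31, interval 0.16 to 0.46). *Ndufab1*, the mitochondrial acyl carrier protein, which also serves mitochondrial fatty acid and lipoic acid synthesis, had 2697 and 3249 (0.27, interval 0.16 to 0.37).

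At the other end, *Ndufa12* had 1621 and 1546 normalized reads (log2 fold change -0.07, interval -0.21 to 0.08), and *Ndufb5* had 3015 and 2979 (-0.02, interval -0.12 to 0.09). Neither interval excluded 0. The accessory subunits with the highest levels per kilobase, *Ndufb9* (6958 and 7278), *Ndufa6* (6889 and 7412) and *Ndufb8* (4936 and 5126), had log2 fold changes of 0.06, 0.11 and 0.05. Abundance within complex I therefore did not mark out the subunits with the larger folds.

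The 8 *Ndufaf* genes encode assembly factors, which build complex I and then leave it. Their mRNAs were scarcer than those of most subunits, from 203.2 to 1403 normalized reads in control liver. Their median log2 fold change was 0.11, with 7 of 8 above 0. *Ndufaf6* had 437.4 and 544.5 normalized reads (0.31, interval 0.05 to 0.58), *Ndufaf2* had 360.1 and 446.6 (0.31, interval 0.02 to 0.60) and *Ndufaf1* had 1014 and 1179 (0.22, interval 0.05 to 0.39). *Ndufaf8* alone was below 0, with 424.6 and 386.8 (-0.13, interval -0.43 to 0.15). Of 9 further complex I assembly genes outside the rule 5 were above 0 (51.3% of all tested genes were), with a median of 0.06. None passed 1.5-fold (11.7% of all tested genes did).

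Complex II, succinate dehydrogenase, is also an enzyme of the tricarboxylic acid cycle, and its median log2 fold change over 4 subunits was 0.08. *Sdha*, the flavoprotein that oxidizes succinate, had 16640 and 18021 normalized reads (0.12, interval 0.07 to 0.16). *Sdhb*, the iron-sulfur subunit, had 6739 and 7265 (0.11, interval 0.04 to 0.18). Of the membrane anchors, *Sdhc* had 5883 and 6114 (0.06, interval -0.02 to 0.13). The other anchor, *Sdhd*, went the opposite way, with 8448 and 7890 (-0.10, interval -0.16 to -0.04), so the catalytic pair and *Sdhd* had intervals that did not overlap.

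Complex III, the cytochrome bc1 complex, had the highest median of the 5, at 0.17, with 7 of 8 subunits above 0. *Uqcrfs1*, the Rieske iron-sulfur protein that hands electrons to cytochrome c1, had 7518 and 9052 normalized reads (log2 fold change 0.27, interval 0.20 to 0.33). The core proteins, which form the matrix-facing base, were close to it. *Uqcrc2* had 8546 and 10103 (0.24, interval 0.18 to 0.30) and *Uqcrc1* had 7391 and 8617 (0.22, interval 0.16 to 0.29).

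The small subunits of complex III covered a wider range. *Uqcr10* had 2648 and 3052 normalized reads (0.20, interval 0.10 to 0.31) and *Uqcrq* had 7129 and 7836 (0.14, interval 0.07 to 0.20). *Uqcrb* had 4132 and 4342 (0.07, interval -0.02 to 0.16), and *Uqcr11* had 3478 and 3558 (0.03, interval -0.06 to 0.13). *Uqcrh*, the hinge protein that helps cytochrome c to dock, was the lowest of all 74 subunits, with 5039 and 4660 (-0.11, interval -0.20 to -0.03). The intervals of the Rieske and core proteins lay wholly above those of *Uqcrh* and *Uqcr11*. *Cyc1*, the cytochrome c1 subunit, falls outside the symbol rule and had 6930 and 7866 (0.18, interval 0.12 to 0.25).

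Complex IV, cytochrome c oxidase, had the lowest median and the narrowest range of the 5. All 11 nuclear subunits were above 0, with a median of 0.06 and a range from 0.01 to 0.14, but only 3 had intervals wholly above 0. *Cox5b*, a zinc-binding subunit, had 4666 and 5145 normalized reads (log2 fold change 0.14, interval 0.06 to 0.22). *Ndufa4*, once assigned to complex I and now counted with complex IV, had 7572 and 8300 (0.13, interval 0.07 to 0.20), and *Cox6a1* had 5946 and 6365 (0.10, interval 0.03 to 0.17). These were the 3 with intervals above 0.

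*Cox4i1*, a regulatory subunit and the highest of complex IV per kilobase in control liver, had 9772 and 10103 normalized reads (0.05, interval -0.01 to 0.10), and *Cox6c* had 5744 and 5947 (0.05, interval -0.02 to 0.12). *Cox5a* had 5336 and 5378 (0.01, interval -0.07 to 0.09), *Cox6b1* 5708 and 5806 (0.02, interval -0.05 to 0.10), and *Cox7a2* 3302 and 3385 (0.04, interval -0.06 to 0.13). *Cox7a2l*, which links complexes III and IV into supercomplexes, had 2630 and 2671 (0.02, interval -0.09 to 0.13).

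Complex V, ATP synthase, had 14 of 15 subunits above 0 and a median of 0.09. All 5 genes of the catalytic head (F1) had intervals above 0 (31.8% of the genes at or above the floor did), with a median of 0.13. They include *Atp5b* and *Atp5a1*, the subunits with the most reads, whose intervals clear 0 at smaller folds. *Atp5d*, the δ subunit of the rotor, had 6667 and 7721 normalized reads (0.21, interval 0.14 to 0.28). *Atp5a1* had 38861 and 42690 (0.14, interval 0.11 to 0.16), whereas its partner *Atp5b* had 45097 and 46577 (0.05, interval 0.02 to 0.07). The α and β subunits assemble in equal number, and their intervals did not overlap here.

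*Atp5e*, the ε subunit of the same head, had 2826 and 3087 normalized reads (0.13, interval 0.02 to 0.23). The medians of the other parts of ATP synthase were nearer to 0. The 4 genes of the peripheral stalk, which holds the head still, had a median of 0.10. The 3 genes of the c ring, the rotor in the membrane, had 0.05, and the 3 genes of small membrane subunits 0.03. These medians cover only genes found by the symbol rule. Outside it, the ATP synthase membrane subunit *Usmg5* had 2386 and 2904 (0.28, interval 0.17 to 0.40). Another, *2010107E04Rik*, had 2327 and 2493 (0.10, interval -0.02 to 0.22). *Atp5h*, in the stalk, had 6431 and 6534 (0.02, interval -0.05 to 0.09), and *Atp5k*, in the membrane, 2701 and 2587 (-0.06, interval -0.17 to 0.05). *Atp5s*, related to a complex I assembly protein and not a subunit, had 172.7 and 173.7.

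Where a subunit has several isoforms, the liver form took nearly all reads in both libraries. *Cox4i1*, *Cox6a1*, *Cox7b* and *Cox8a* had partners (*Cox4i2*, *Cox6a2*, *Cox7b2*, *Cox8b* and *Cox8c*) at 3 read pairs or fewer, 4 of them listed at 0 in both libraries. *Cox6b1* made up 99.8% and 99.5% of the *Cox6b* reads. The testis-type *Cox6b2* had 11.2 and 26.9 normalized reads, or 5.65 and 13.3 read pairs, below the minimum for testing. The muscle-type *Cox7a1* had 31.8 and 34.2, or 0.954% and 1.001% of the reads it shares with *Cox7a2*.

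Muscle forms were thus at trace levels, and none of 8 striated muscle markers reached the minimum for testing. *Ckm*, *Myh4*, *Actn2* and *Mb* were listed at 0 in both libraries, and the whole list summed to 15.9 and 10.1 normalized reads, with *Tnnt2* the highest at 7.92 and 6.04. *Ndufa4l2*, the hypoxia-inducible relative of *Ndufa4*, had 50.2 and 36.2 normalized reads (log2 fold change -0.43, interval -1.42 to 0.48). It made up 0.66% and 0.43% of the pair's reads. The 3 *Atp5g* genes encode the same mature c-ring protein with different import signals, and here all were used. *Atp5g3* gave 57.4% and 58.3% of their reads, *Atp5g1* 31.1% and 30.6%, and *Atp5g2* 11.5% and 11.1%.

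Some subunit values are uncertain because other genes resemble or overlap them. Of the 74 subunits 12 had a near-identical copy (95% identity or more) among other annotated genes. The copies' own values exceeded 10% of the subunit's in 3 cases, *Atp5g2* (53.8%), *Atp5l* (45.0%) and *Ndufs5* (11.1%), and how reads were divided between them is not given in the sources used here. The median of the 62 subunits with no such copy was 0.10. Many subunits share exonic bases with another gene. *Atp5j* shares 175 with *Gabpa* and *Ndufb5* shares 530 with *Mrpl47*, both on the opposite strand. *Ndufb2* shares 145 with *Gm42420* on the same strand. Whether the counting used strand is likewise not given.

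Although the mt- genes were not analysed here, nuclear pseudogenes that copy them were listed, and these were looked up after their values were seen. A run of 7 lies side by side on the minus strand of chromosome 1 and matches *mt-Nd3*, *mt-Nd4l*, *mt-Nd4*, *mt-Co1*, *mt-Co2*, *mt-Co3* and *mt-Atp6* at 99.71% to 100% identity. Their levels were those of very abundant mRNAs. *Gm10925*, the copy of *mt-Atp6*, had 308071 and 295014 normalized reads, and *Gm29216*, which copies part of *mt-Co1*, had 232518 and 206336 (log2 fold change -0.17).

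Together the 7 copies took 2.79% of control reads (95% exact binomial interval 2.78% to 2.79%) and 2.72% of iFIRKO reads (2.72% to 2.73%). The log2 ratio of their sums was -0.05, while their median log2 fold change was 0.0049 and 4 of 7 were above 0. The nuclear subunits summed to a log2 ratio of 0.10, with a median of 0.09. The remaining copies were *Gm28437* (of *mt-Co3*) with 222657 and 216272, *Gm28661* (of *mt-Co2*) with 222786 and 227754, and *Gm28439* (of *mt-Nd4*) with 125148 and 125573. *Gm10222* (of *mt-Nd4l*) had 38567 and 39979, and *Gm28438* (of *mt-Nd3*) 21260 and 21853.

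Reads from mitochondrial transcripts and from copies this similar cannot be told apart. Copies that differ more had far lower values. The 8 copies at 90.7% to 97.6% identity summed to 7097 and 7185 normalized reads, or 0.0169% and 0.0173% of each library. The highest was *Gm13340*, which copies *mt-Co1* at full length with 97.6% identity and had 3777 and 3538. A 30-base stretch shows the difference between the near-perfect and the diverged copy. Capitals mark the bases at which *Gm13340* departs from *mt-Co1*, and GENCODE M21 coordinates on GRCm38 follow.
mt-Co1: atcatagcaggattTGttcactgattccca
Gm29216: atcatagcaggattTGttcactgattccca
Gm13340: atcatagcaggattCAttcactgattccca
The first is chrM:6492-6521 on the plus strand, the second chr1:24616057-24616086 on the minus strand and the third chr2:22588454-22588483 on the minus strand. Counted from 1 at the 5′ end of *mt-Co1*, *Gm13340* carries T1179C and G1180A in this stretch. *Gm29216* has a single substitution over its 483 aligned bases, A1066T, outside it.

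**Figure D3:**
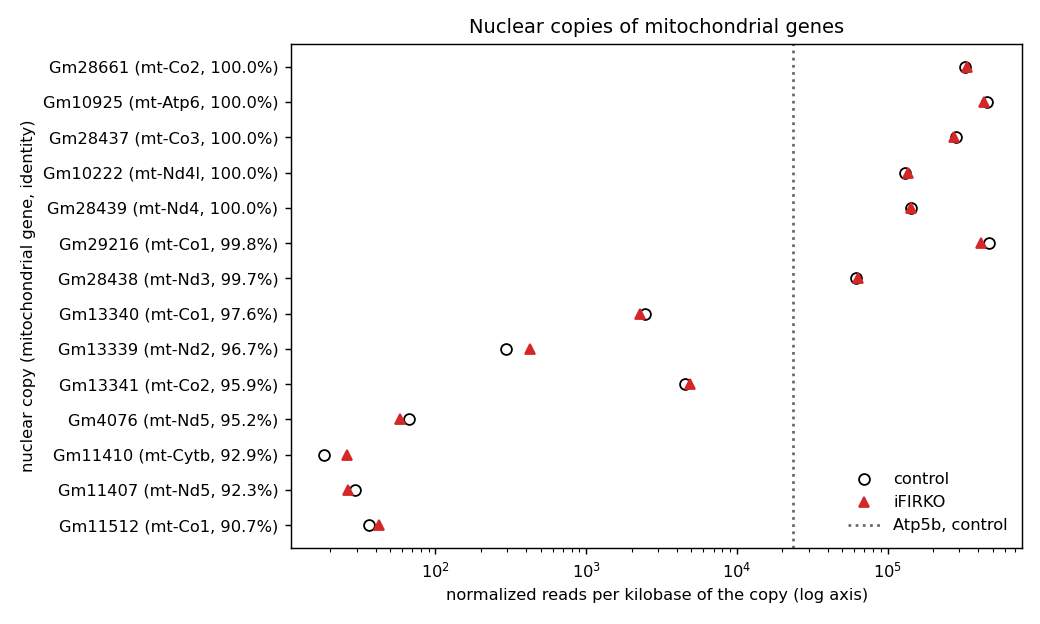
Level of each nuclear copy of a mitochondrial gene in normalized reads per kilobase (log axis) in the control (circles) and iFIRKO (triangles) libraries, ordered by identity to the mitochondrial gene; the dotted line is the control level of Atp5b. The 7 copies at 99.71% identity or more lie to the right of the Atp5b line and all copies below 98% lie to its left, in both libraries; Gm11408, listed at 0, is not drawn.

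Genes that work with the complexes were read from lists of known function. Electron carriers and other donors to the chain had a median log2 fold change of 0.18 over 19 genes, with 1 gene more than 1.5-fold higher (4.46% of all tested genes were) and 0 more than 1.5-fold lower (7.28% were). That gene was *Gpd2*, the mitochondrial glycerol-3-phosphate dehydrogenase, which feeds electrons from cytosolic NADH into ubiquinone, with 1288 and 2227 normalized reads (0.79, interval 0.65 to 0.93). *Etfdh*, which passes electrons from fatty acid oxidation to ubiquinone, had 9749 and 12670 (0.38, interval 0.32 to 0.43), and *Etfa*, part of its electron donor, 8592 and 9009 (0.07, interval 0.01 to 0.13). *Coq8a*, which supports ubiquinone synthesis, was lower, with 32894 and 23213 (-0.50, interval -0.54 to -0.47).

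The tricarboxylic acid cycle supplies the NADH and succinate that complexes I and II oxidize. Of 15 genes, counted with pyruvate carboxylase, 14 were above 0 (51.3% of all tested genes were), with a median of 0.20. Of them 2 were more than 1.5-fold higher (4.46% of all tested genes) and 0 lower (7.28%). *Pcx*, pyruvate carboxylase, which starts glucose synthesis and refills the cycle, had 19253 and 31344 normalized reads (0.70, interval 0.67 to 0.74). *Fh1*, fumarase, had 6167 and 9386 (0.61, interval 0.54 to 0.67). Both exceeded the highest value of any respiratory subunit. *Suclg2*, a subunit of the GTP-forming succinyl-CoA ligase, had 10806 and 13085 (0.28, interval 0.22 to 0.33), and *Dlst*, of the oxoglutarate dehydrogenase complex, 8307 and 10576 (0.35, interval 0.29 to 0.41).

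A comparison list of 14 mitochondrial fatty acid oxidation genes was added after seeing the data. All 14 were above 0 (51.3% of all tested genes were), with a median of 0.36. None passed 1.5-fold (11.7% of all tested genes did). The most abundant members of this list were *Acaa2* (25135 and 33677), *Hadha* (14234 and 19361) and *Acadm* (13643 and 19510), enzymes of β-oxidation. The interquartile range of this list, 0.30 to 0.44, lay above that of the subunits. Cytosolic ribosomal proteins, also added after seeing the data as another large set of short and abundant mRNAs, lay the other way. Of these, 77 of 77 tested genes were below 0 (51.3% of all tested genes were above 0), with a median of -0.20. None passed 1.5-fold (11.7% of all tested genes did).

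**Figure D4:**
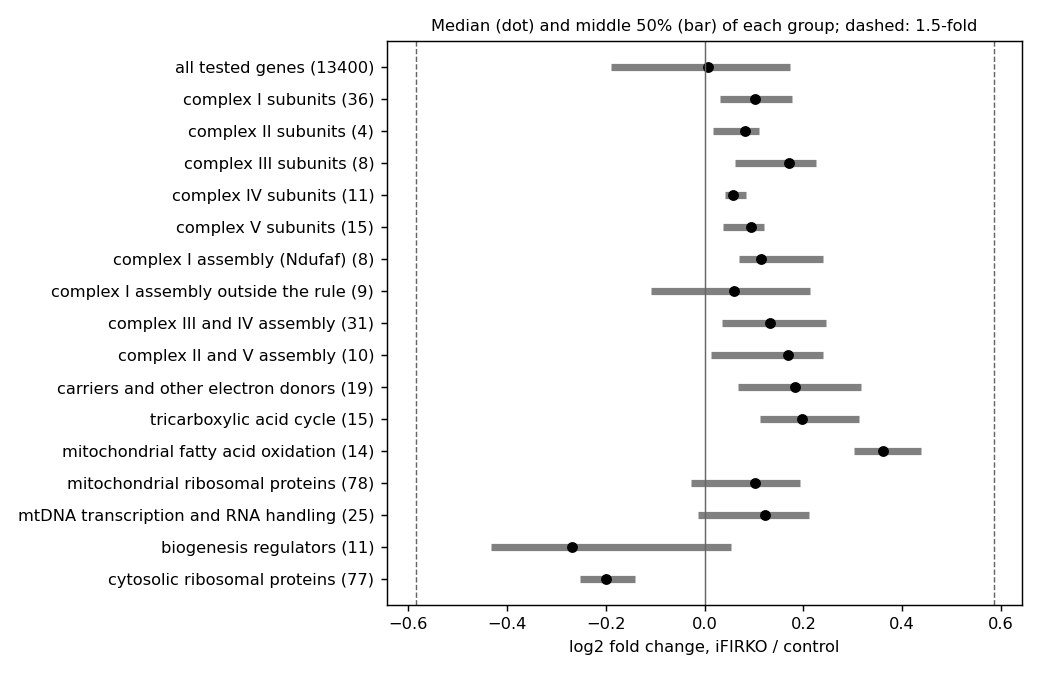
Median log2 fold change (dot) and interquartile range (bar) of each complex, of related gene lists and of all tested genes, with the number of genes in brackets; dashed lines are 1.5-fold. The medians of the 5 complexes lie between 0.06 and 0.17, below the fatty acid oxidation genes at 0.36, while biogenesis regulators (-0.27) and cytosolic ribosomal proteins (-0.20) lie below 0.

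Genes that build and express the complexes had medians near those of the subunits. The assembly genes of complexes III and IV had a median of 0.13 over 31 genes and those of complexes II and V 0.17 over 10 genes. In either list 0 passed 1.5-fold (11.7% of all tested genes did). Mitochondrial ribosomal proteins, which translate the mt- mRNAs, had a median of 0.10 over 78 genes, 54 of them above 0 (51.3% of all tested genes were). Their intervals lay wholly above 0 for 24 genes and wholly below 0 for 4. The shares among the genes at or above the floor, not matched to them on level, were 31.8% and 26.2%. Genes for mitochondrial DNA transcription and RNA handling had a median of 0.12 over 25 genes. *Lrpprc*, which stabilizes mitochondrial mRNAs, had 4714 and 5337 normalized reads (0.18, interval 0.10 to 0.26).

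The transcription regulators best known for driving mitochondrial biogenesis did not share that sign. Over 11 tested genes the median was -0.27, with 4 above 0 (51.3% of all tested genes were). None was more than 1.5-fold higher (4.46% of all tested genes were) and 1 was more than 1.5-fold lower (7.28% were). That gene was *Esrrb*, a nuclear receptor of the ERR family, at a very low level of 55.8 and 18.1 normalized reads (-1.43, interval -2.89 to -0.49). *Ppargc1a*, the coactivator PGC-1α, had 557.3 and 411.4 (-0.43, interval -0.71 to -0.17). *Gabpa*, an ETS-family factor that binds many subunit promoters, had 2118 and 1759 (-0.27, interval -0.40 to -0.14).

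Lower values were also found for *Gabpb2* (1693 and 1501, log2 fold change -0.17), *Gabpb1* (-0.43), *Ppargc1b* (-0.43) and *Esrrg* (-0.57), and the interval of *Ppargc1b* included 0. The 4 regulators above 0 were *Yy1*, *Nrf1*, *Esrra* and *Pprc1* (0.35). *Yy1*, a zinc-finger factor, had 2322 and 2431 normalized reads (0.07, interval -0.05 to 0.18), and *Nrf1*, nuclear respiratory factor 1, had 372 and 383 (0.04, interval -0.26 to 0.34). *Esrra*, the main ERR receptor of metabolic tissues, had 1200 and 1360 (0.18, interval 0.02 to 0.34). The median of this list depended on its low genes and was -0.07 at a minimum of 5 CPM.

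Binding motifs of these regulators were counted in RefSeq promoter windows (GRCm38.p6, 250 bases before to 50 after the start), which were matched for 63 of the 74 subunits. Both strands were searched for exact letters. The palindromic NRF1 motif, given in capitals in the windows printed with the next paragraph, stood in 5 windows (7.94%), against 1.07% of the 27025 genes in the table. The YY1 motif AAGATGGC stood in 10 (15.9% against 3.19%). Only in *Atp5f1* and *Atp5j* did it begin before the start. In the others it began between base 22 (*Ndufa3*) and base 38 (*Ndufb8*) after it. Its letters include ATG, and whether these matches are translation starts was not tested. The ETS motif CCGGAAG stood in 16 (25.4% against 9.93%) and the ERR motif TCAAGGTCA in 2 (3.17% against 0.466%). The 27025 genes were not limited to expressed or coding genes. At least 1 of the 4 motifs was present in 29 of the 63 windows. The matching share over all 27025 genes was not computed, so this count has no background. Subunits with and without a motif had medians of 0.10 and 0.09 for NRF1, 0.04 and 0.10 for YY1, 0.06 and 0.11 for ETS, and -0.0023 and 0.09 for ERR, which rests on 2 subunits.

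The 5 windows with the NRF1 motif are shown because they join subunits of 4 complexes that otherwise have unrelated sequences. Each is 30 bases, written 5′ to 3′ along the gene's strand, with the motif in capitals.
Uqcrc1: actccgctctGCGCATGCGCagcgcggctc
Ndufa11: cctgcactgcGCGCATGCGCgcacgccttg
Cox6a1: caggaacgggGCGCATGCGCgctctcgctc
Atp5g2: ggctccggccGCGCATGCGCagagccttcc
Atp5k: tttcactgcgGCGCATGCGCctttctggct
They lie at chr9:108936668-108936697 (plus strand), chr17:56717692-56717721 (plus), chr5:115349101-115349130 (minus), chr15:102671070-102671099 (minus) and chr5:108434430-108434459 (minus). These genes spanned log2 fold changes from -0.06 (*Atp5k*) to 0.22 (*Uqcrc1*), so carrying this motif did not go with a single value.

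The 2 subunits whose intervals lay below 0 both held the ETS motif, on the reverse strand, an observation made after their values were seen. The motif is in capitals.
Sdhd: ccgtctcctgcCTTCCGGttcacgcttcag
Uqcrh: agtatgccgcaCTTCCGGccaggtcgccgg
The *Sdhd* window is chr9:50603877-50603906 and the *Uqcrh* window chr4:116075062-116075091, both on the minus strand. The other 14 subunits with this motif included *Sdhb*, at 0.11, so the motif was not particular to the lower genes. *Sdhd* was also 1 of the 2 subunits with the ERR motif, beside *Atp5g3*, at 0.09. The ETS and ERR comparisons thus share *Sdhd*. A match describes these letters and not binding in this liver.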

How the data were processed

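Liver mRNA was sequenced by the authors with the TruSeq stranded mRNA kit on the NovaSeq for 1 control and 1 iFIRKO library. The authors deposited normalized read counts by gene symbol on a log2 scale, with scaled values of 1 or less set to 0. The build is mm10 per the labels, while the aligner, counter, annotation, strand setting and handling of multi-mapping reads are not given in the sources used here.

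Deposited values were raised back from log2. The commonest low value was taken as 1 read pair, giving factors of 0.9935 (control) and 1.007 (iFIRKO). As 52.2% and 54.5% of low values were then whole reads (within 0.02), depths are estimates. No count-based test was run. The intervals do treat the estimated read pairs, rounded to whole numbers, as counts, so they are approximate too. Genes at 41.8 normalized reads (1 CPM) in either or both libraries were tested, adding 4.18 to each value before the ratio, at the study's 1.5-fold threshold. Genes at 3 read pairs or fewer were given no fold. Transcript lengths and positions came from GENCODE M21 (GRCm38), using the principal, best-supported, then shortest transcript, and all 92 symbols matched. Copies were found with blastn 2.17.0+, for mitochondrial genes at 90% identity over 200 bases and for subunits at 95% over 150 bases and 50% of the transcript. The interval code was run on read pairs simulated with counting error alone, which the interval assumes. That run checked the code and not how well the intervals hold for these data. Tools were pandas 2.3.3, numpy 2.4.6, scipy 1.17.1 and matplotlib 3.10.9 under Python 3.11.15.

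The members and lists were chosen with earlier results of these data known. Named by rule were, per complex, the 3 highest levels per kilobase, the 3 largest and 3 smallest folds, every isoform family, and of related lists the genes past 1.5-fold and up to 3 by level. Other names were chosen after their values were seen. Alternatives were another pseudocount, the plain ratio, other minimums, 4 scalings (TMM was computed directly from the linear values), a lower and a higher fold, summed duplicate symbols and other groupings of members. The separate values of 1 gene are not reported here, although counts and medians include it.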

Additional observations from a re-analysis of the deposited data

Results flagged for a closer look

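Pseudogene rows with the -ps mark, which the symbol rule leaves out, were set aside from the comparisons, and 3 of these 7 rows held signal above the 3 read pairs that a count of 0 allows. *Atp5l2-ps* had 79.8 (control) and 75.9 (iFIRKO) normalized reads. *Ndufab1-ps* had 76.9 and 91.7, and *Atp5l-ps1* had 38.1 and 37.2. These values lie far below those of the parent genes *Atp5l* (3366 and 3536) and *Ndufab1* (2697 and 3249), and whether the reads came from the pseudogenes or from the parents was not tested.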

How the results depend on the processing

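No paired analysis was possible because both genotypes have a single library, and for the same reason no replicate could be left out. The median of the 74 subunits stayed between 0.08 and 0.10 under every alternative run, and those of complexes I to V between 0.09 and 0.12, 0.07 and 0.10, 0.16 and 0.20, 0.04 and 0.07, and 0.08 and 0.11. Between 62 and 68 subunits were above 0. Scaling moved log2 fold changes by -0.012 to 0.015. Of 85 members followed over 11 settings, 0 left their counting interval and 7 changed sign. The first count is no check of the intervals. The scaling shifts were smaller than the narrowest half-width of a subunit's interval (0.026), and other minimums leave a fold unchanged. At a threshold midway between 1-fold and 1.5-fold 1 subunit, *Ndufa8*, was higher. Counts over all tested genes (597 higher and 976 lower) were 371 and 576 with a pseudocount of 1 CPM, 1960 and 2620 with no minimum, 288 and 440 at a minimum of 5 CPM, 209 and 267 past 2-fold and 1662 and 2138 past that lower threshold. The log2 ratio of the 7 near-identical mitochondrial copies ran from -0.06 to -0.03 over the scalings. The planned median and read share of mt- genes, and the scaling without them, were not run because the rule found 0 mt- rows; a scaling without the 7 copies, chosen after seeing the data, stood in for the last. Counting error limits the low isoforms and assembly factors most.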
